A study of Mus musculus with 9 samples.

Results

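The genes described here are those of NRF2-directed antioxidant defence and of other detoxification steps, 34 named genes grouped by role. Every probe whose deposited gene symbol, or an older synonym of the same gene, belonged to one of them was taken, which gave 51 probes for 33 genes out of 17889 genes and 25697 probes in all. Gsr was not analysed here. The brightest probe of each gene carried the test, and 11 of the genes had further probes that are given beside it.

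Whole ovaries of Swiss mice at postnatal day 3 to 4 were kept on culture inserts for 96 hours in 3 groups. The groups received BaP (benzo[a]pyrene) at 1 uM, DMBA (7,12-dimethylbenz[a]anthracene) at 50 nM, or the vehicle, 0.01% acetone. All media held fetal calf serum, ascorbic acid, insulin-transferrin-selenium, basic fibroblast growth factor, leukemia inhibitory factor and stem cell factor, so the acetone ovaries were also cultured with an antioxidant and with selenium. DMBA was dosed to give overt toxicity, the doses of the compounds differ, and their responses are therefore set out beside each other without a match in dose. RNA of each group was hybridised to 3 Illumina mouse Ref-8 arrays, 9 altogether, and the labels do not say whether these were separate animals, pools or cultures. What the p-values weigh is thus array-to-array spread within a group, possibly only technical.

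NRF2, encoded by Nfe2l2, is a transcription factor that KEAP1 holds in the cytoplasm and marks for degradation. Reactive compounds modify KEAP1, NRF2 then accumulates and, with a small MAF partner, binds antioxidant response elements of genes for glutathione synthesis, the thioredoxin system, haem breakdown and NADPH supply. Polycyclic aromatic hydrocarbons such as BaP and DMBA are oxidised by cytochrome P450 enzymes to epoxides and diols, which hydrolases, reductases, transferases and efflux pumps then process. Most control of NRF2 acts on the protein, which arrays do not measure.

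Arrays differed in brightness, the median raw signal being 94.7 to 104.1 for BaP, 105.2 to 126.0 for DMBA and 105.8 to 133.7 for acetone. DMBA replicate 3 deviated most from its group, with an SD of 0.153 over genes where the other 8 arrays had 0.0785 to 0.123. Levels below are log2 normalized signals, and differences are differences of these. Cdkn1a, a cell cycle inhibitor gene of the DNA damage response, rose by 1.26 with BaP (SE 0.08, limma adjusted p = 4.69e-11) and by 1.32 with DMBA (SE 0.12, limma adjusted p = 0.00123). Of 14 oocyte and 12 granulosa markers, all but Kitl lay above the 0.25 quantile of gene levels. In bulk tissue, fewer cells of a type and less RNA per cell cannot be told apart.

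With BaP, 9 of 33 genes passed the test and their directions were mixed. Nfe2l2, the epoxide hydrolase Ephx1, the aldose reductase Akr1b3, the extracellular and mitochondrial superoxide dismutases Sod3 and Sod2 and the secreted glutathione peroxidase Gpx3 rose. The sulfiredoxin Srxn1, the haem oxygenase Hmox1 and the carbonyl reductase Cbr1 fell. In all, 10.6% of all genes tested were called with BaP, 4.71% higher and 5.86% lower, beside 27.27% of these genes. The median difference over the 33 genes was 0.01, beside -0.0049 over all genes, and single genes ran between -0.48 and 0.52, so no called gene reached a fold of 1.5. Unadjusted p-values under 0.05 were reached by 12 of 33 genes, beside 21.5% of all genes. Without acetone replicate 2 or without BaP replicate 2, 5 of 33 genes were called, beside 6.05% and 8.26% of all genes. These were Nfe2l2, Ephx1, Akr1b3, Sod3 and Srxn1, which held in all 6 fits that left out 1 array. The groups did not overlap in 15 of 33 genes, beside 24.6% of all genes.

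With DMBA, 2 of 33 genes passed, Nfe2l2 and the glutathione peroxidase Gpx2, and both rose. Of all genes tested 1.04% were called with DMBA, 0.716% higher and 0.324% lower, and these genes had a share of 6.06%. The median difference was 0.03, beside -0.01 over all genes. The groups did not overlap in 9 of 33 genes, beside 15.7% of all genes. The DMBA calls depended on each acetone array and on DMBA replicate 2. Without acetone replicate 1, 2 or 3, or without DMBA replicate 2, limma called 0 of 33 genes and 22 to 65 of all genes, while the differences stayed at 0.53 to 0.65 for Nfe2l2 and 0.40 to 0.56 for Gpx2 over the 6 fits that left out 1 array. This stands beside 9 of 33 at an unadjusted p under 0.05 with all arrays (10.2% of all genes). Without DMBA replicate 3, 5 passed, all higher, namely Nfe2l2, Gpx2, Gpx3, Ephx1 and Me1. That fit also called more of all genes, 4.58% in place of 1.04%. Both comparisons use the same 3 acetone arrays, so values of both are given side by side.

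**Figure D1:**
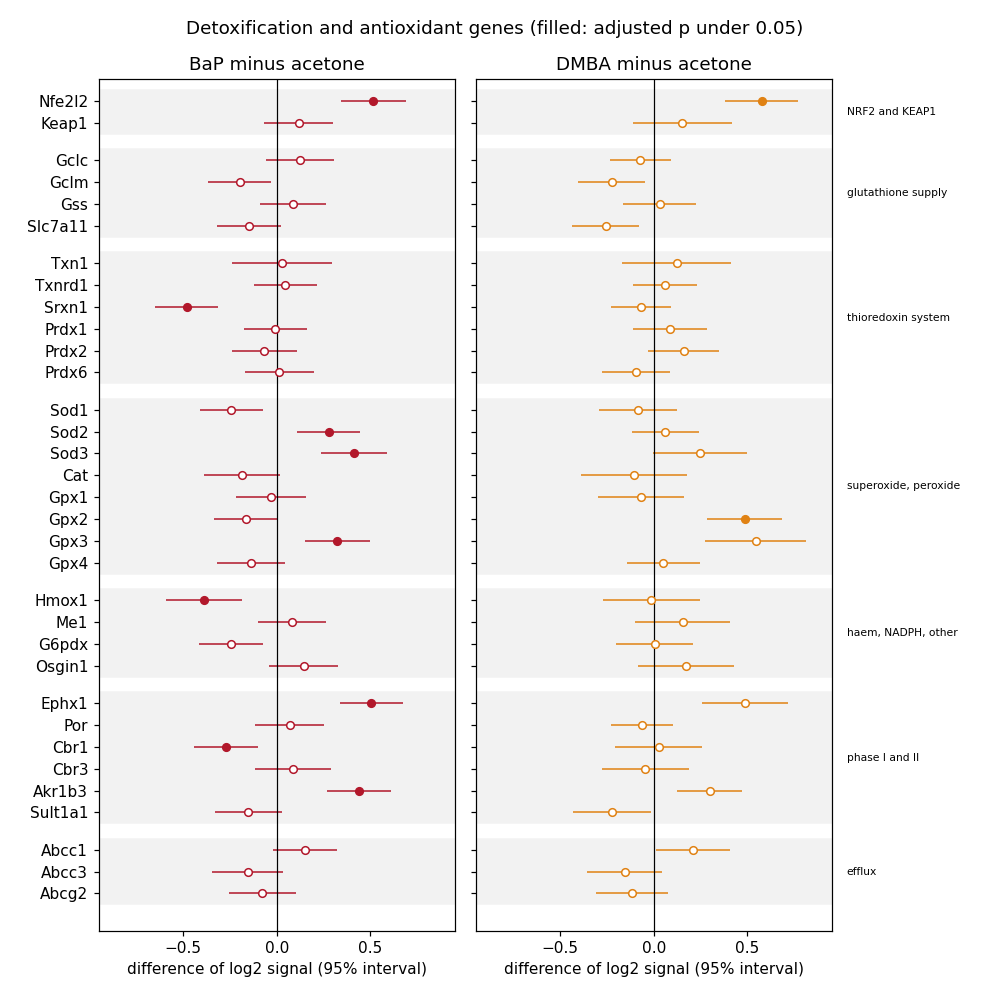
Differences of log2 signal from acetone for the 33 genes measured, grouped by role, with BaP at the left and DMBA at the right. Points are differences with 95% intervals from limma, filled where the adjusted p is under 0.05: 6 filled points lie above 0 and 3 below it for BaP, and 2 above 0 for DMBA.

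To show what the sequence before the start of these genes holds, promoter windows of 250 bases before and 50 bases after the start were read from RefSeq on build GRCm38.p6, which covers 26 of the 33 genes with 34 windows. They were searched on both strands for the core of the antioxidant response element, TGACNNNGC, and for the core bound by the aryl hydrocarbon receptor, GCGTG. The first was found in 8 of 34 windows (23.5%), of G6pdx, Gclm, Me1, Nfe2l2, Prdx1, Sod1, Srxn1 and Txnrd1, against 12.4% of 32851 windows of all genes. The second was found in 20 of 34 windows (58.8%), against 32.4% of all windows, and in Sod1 it lies within the antioxidant match. A match is a description of letters, and base composition was not matched. Printed below, 5′ to 3′ on the strand of the gene, are Nfe2l2, which rose with both compounds (chr2:75704614-75704913, minus strand), Srxn1, which fell with BaP (chr2:152105274-152105573, plus strand), Gpx2, which differed between the compounds (chr12:76795505-76795804, minus strand), and Prdx1, which passed no test (chr4:116685349-116685648, plus strand). Capitals mark the antioxidant core.
Nfe2l2: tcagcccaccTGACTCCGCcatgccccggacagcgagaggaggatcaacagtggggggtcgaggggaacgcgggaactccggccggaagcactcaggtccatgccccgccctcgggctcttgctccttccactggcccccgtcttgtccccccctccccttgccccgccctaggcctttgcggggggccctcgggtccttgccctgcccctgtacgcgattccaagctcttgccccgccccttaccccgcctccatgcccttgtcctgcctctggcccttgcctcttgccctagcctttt
Srxn1: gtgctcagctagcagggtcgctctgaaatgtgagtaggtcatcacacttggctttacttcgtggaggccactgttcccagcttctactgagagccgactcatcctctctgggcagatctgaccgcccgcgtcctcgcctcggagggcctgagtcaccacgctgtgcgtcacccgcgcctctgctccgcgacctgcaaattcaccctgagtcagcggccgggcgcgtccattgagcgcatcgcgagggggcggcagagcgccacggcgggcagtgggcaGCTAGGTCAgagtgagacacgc
Gpx2: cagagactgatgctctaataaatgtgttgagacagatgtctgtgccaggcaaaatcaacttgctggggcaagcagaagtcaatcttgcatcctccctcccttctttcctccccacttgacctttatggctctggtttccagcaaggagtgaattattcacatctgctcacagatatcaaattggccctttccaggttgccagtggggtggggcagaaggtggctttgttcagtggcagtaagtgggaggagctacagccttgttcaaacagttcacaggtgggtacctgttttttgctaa
Prdx1: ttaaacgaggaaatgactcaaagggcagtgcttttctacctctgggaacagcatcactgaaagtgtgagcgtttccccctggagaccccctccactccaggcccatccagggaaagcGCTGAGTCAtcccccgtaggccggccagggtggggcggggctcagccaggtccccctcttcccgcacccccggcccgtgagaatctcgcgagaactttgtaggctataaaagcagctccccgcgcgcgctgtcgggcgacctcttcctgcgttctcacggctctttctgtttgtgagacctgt
The match in Nfe2l2 begins 240 bases before the start, that in Prdx1 begins 133 bases before it, and that in Srxn1 lies after it. The Gpx2 window holds no match.

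Nfe2l2, the NRF2 gene itself, stood at 7.77, 7.91 and 7.80 on the BaP arrays and at 7.93, 7.99 and 7.74 on the DMBA arrays, against 7.40, 7.26 and 7.28 on the acetone arrays. All 6 exposed arrays lay above all 3 acetone arrays. The difference was 0.52 for BaP (SE 0.08, limma adjusted p = 1.12e-04, 1.43-fold) and 0.58 for DMBA (SE 0.09, limma adjusted p = 0.0118, 1.49-fold). Between the compounds it was -0.06 (BaP minus DMBA, 95% interval -0.26 to 0.14). A dimmer probe of Nfe2l2 gave -0.01 with BaP and 0.01 with DMBA, at a mean level of 5.96, near the lowest signals, and was not called. The BaP call held in all 6 fits that left out 1 array (0.47 to 0.56), and the DMBA call in 2 of 6, with differences of 0.53 to 0.65 and adjusted p-values of 1.16e-05 to 0.122. It was lost without DMBA replicate 2 (0.65) and without acetone replicate 1, 2 or 3.

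Keap1, the NRF2 inhibitor, passed no test. Its brightest probe was at 9.92, 9.75 and 9.84 on BaP arrays and 9.71, 9.77 and 10.14 on DMBA arrays, against 9.87, 9.58 and 9.72 on acetone arrays. On this probe the groups overlapped. The differences were 0.12 for BaP (95% interval -0.07 to 0.30) and 0.15 for DMBA (-0.11 to 0.42). Its 3 dimmer probes gave -0.20, 0.05 and 0.15 with BaP and 0.02, 0.27 and 0.33 with DMBA, at mean levels of 8.0 to 8.90, none past the test. On the probes at 0.27 and 0.33 all DMBA arrays lay above all acetone arrays (limma adjusted p = 0.143 and 0.108). On the probe at -0.20 all BaP arrays lay below all acetone arrays (limma adjusted p = 0.142). The 4 probes had both signs with BaP and a positive sign with DMBA.

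Of 4 measured genes for glutathione supply, none passed in any comparison. Gclc, the catalytic subunit of the rate-limiting glutamate-cysteine ligase, was at 6.23, 6.51 and 6.41 with BaP and 6.22, 6.21 and 6.14 with DMBA, against 6.20, 6.30 and 6.28 with acetone. Both exposed groups overlapped acetone, and the BaP arrays lay just above the DMBA arrays. Gclc had a low mean level of 6.28, where a change can be hard to see. Its differences were 0.12 (95% interval -0.06 to 0.30) for BaP and -0.07 (-0.24 to 0.09) for DMBA. Gclm, the modifier subunit of the same enzyme, was at 8.85, 8.89 and 8.87 with BaP and 8.86, 8.93 and 8.74 with DMBA, against 9.04, 9.04 and 9.12 with acetone. Every exposed array lay below every acetone array, with differences of -0.20 for BaP (limma adjusted p = 0.136) and -0.23 for DMBA (limma adjusted p = 0.322). Slc7a11, which imports the cystine used for glutathione, was at 6.87, 6.94 and 6.79 with BaP and 6.65, 6.84 and 6.79 with DMBA, against 6.97, 7.04 and 7.04 with acetone. Again no exposed array overlapped the acetone arrays, and the differences of -0.15 (limma adjusted p = 0.32) and -0.26 (limma adjusted p = 0.234) did not pass. Gss, the gene of glutathione synthetase, had differences of 0.08 for BaP and 0.03 for DMBA, and its dimmer probes gave -0.03 to 0.01 and -0.16 to 0.10.

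Among 6 genes of the thioredoxin and peroxiredoxin system, which reduces peroxides and oxidised thiols, Srxn1 alone passed, with BaP and between the compounds. Each time the share was 16.67%, beside 10.6% of all genes with BaP and 1.46% between the compounds. Srxn1 makes sulfiredoxin, which reactivates overoxidised peroxiredoxins. It was at 8.10, 7.96 and 8.0 on BaP arrays and 8.40, 8.47 and 8.43 on DMBA arrays, against 8.52, 8.47 and 8.52 on acetone arrays. The BaP arrays were the lowest of the 9, and the difference was -0.48 against acetone (SE 0.08, limma adjusted p = 2.06e-04) and -0.41 against DMBA (SE 0.08, limma adjusted p = 0.0294). The call against acetone held in 6 of 6 fits without 1 array. The call against DMBA held in 2 of 6, with adjusted p-values of 0.0105 to 0.168, and was lost without DMBA replicate 2 or any BaP replicate. For DMBA against acetone the difference was -0.07 (95% interval -0.23 to 0.09). Its 2 dimmer probes, at mean levels of 6.50 and 6.60, gave -0.01 and 0.10 with BaP and 0.03 and 0.20 with DMBA.

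The other thioredoxin genes stayed under the threshold. Txnrd1, thioredoxin reductase, was at 6.30, 6.38 and 6.34 with BaP and 6.41, 6.28 and 6.37 with DMBA, against 6.24, 6.28 and 6.35 with acetone. These overlap, and the 95% intervals of its differences were -0.12 to 0.22 for BaP and -0.11 to 0.23 for DMBA. Txnrd1 also had a low mean level, 6.33. Txn1, thioredoxin, varied more within groups, with levels of 7.47 to 8.17 for BaP, 7.75 to 8.23 for DMBA and 7.68 to 8.09 for acetone. The peroxiredoxins Prdx1 (-0.01), Prdx2 (-0.07) and Prdx6 (0.01) were near 0 in their differences with BaP, and differed by 0.09, 0.16 and -0.09 with DMBA. Prdx1 and Prdx2 were among the brightest of all genes (percentiles 99.5 and 99.4 of level). Both Prdx6 probes lay low, the brighter at a mean level of 6.13.

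Superoxide dismutases convert superoxide to hydrogen peroxide, and catalase and glutathione peroxidases remove the peroxide. Of 8 such genes, 3 rose with BaP (Sod2, Sod3, Gpx3) and 1 with DMBA (Gpx2), and none fell. The shares were 37.5% and 12.5%, beside 10.6% and 1.04% of all genes. Sod3, the extracellular dismutase, was at 7.23, 7.39 and 7.37 on BaP arrays and 6.89, 7.27 and 7.34 on DMBA arrays, against 7.02, 6.86 and 6.88 on acetone arrays. The BaP arrays all lay above acetone and the DMBA arrays overlapped it, with differences of 0.41 (SE 0.09, limma adjusted p = 0.00171) and 0.25 (limma adjusted p = 0.499). Sod2, the mitochondrial dismutase, was at 11.35, 11.44 and 11.41 with BaP and 11.30, 11.12 and 11.13 with DMBA, against 11.14, 11.07 and 11.16 with acetone. Its BaP arrays were the highest of the 9, a difference of 0.28 (SE 0.08, limma adjusted p = 0.0286) that was lost without acetone replicate 1 or 2 or BaP replicate 2 or 3. Sod1, the cytosolic dismutase, was at 12.68, 12.70 and 12.66 with BaP and 12.86, 13.00 and 12.66 with DMBA, against 12.87, 12.93 and 12.97 with acetone. Its difference of -0.24 with BaP lay just outside the threshold (limma adjusted p = 0.0555), so Sod1 and the other dismutases had opposite signs with BaP.

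Gpx2, a glutathione peroxidase best known from gut epithelium, was lower with BaP than with DMBA. It was at 5.94, 5.99 and 6.03 on BaP arrays and 6.62, 6.48 and 6.80 on DMBA arrays, against 6.17, 6.12 and 6.16 on acetone arrays. The 3 groups did not overlap: DMBA arrays were highest and BaP arrays lowest. The difference was 0.49 for DMBA against acetone (SE 0.09, limma adjusted p = 0.0328) and -0.17 for BaP against acetone (limma adjusted p = 0.246). BaP minus DMBA was -0.65 (SE 0.10, limma adjusted p = 0.00599, 1.57-fold), and this call was lost without BaP replicate 1 or 2 (adjusted p-values over the 6 fits without 1 array 4.33e-04 to 0.056). The DMBA call was lost without DMBA replicate 2 or acetone replicate 1, 2 or 3, and on the deposited normalized values. Its signal is low, with a mean level of 6.26 at percentile 45.1.

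Gpx3, the secreted plasma-type peroxidase, was at 11.00, 11.10 and 11.00 on BaP arrays and 10.98, 11.27 and 11.52 on DMBA arrays, against 10.63, 10.71 and 10.80 on acetone arrays. Every exposed array lay above every acetone array. The BaP difference of 0.32 passed (SE 0.08, limma adjusted p = 0.0117), although not without acetone replicate 1 or 2 or BaP replicate 2. The DMBA difference of 0.54 was larger but the DMBA arrays spread more (SD 0.27, against 0.09 for acetone), and it did not pass (limma adjusted p = 0.0729). It passed without DMBA replicate 1 or 3, and on all arrays with 9 arrays in 1 fit. The differences of Gpx1 (-0.03 with BaP, -0.07 with DMBA), Gpx4 (-0.14 and 0.05), the peroxidase that protects membrane lipids, and Cat (-0.19 and -0.11), catalase, did not pass.

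Hmox1, the inducible haem oxygenase and a widely used NRF2 target, fell with BaP. It was at 8.31, 7.87 and 7.91 on BaP arrays and 8.11, 8.53 and 8.59 on DMBA arrays, against 8.47, 8.45 and 8.35 on acetone arrays. The BaP arrays lay below acetone, BaP replicate 1 by the smallest margin, and the DMBA arrays overlapped it. The difference was -0.39 with BaP (SE 0.10, limma adjusted p = 0.00956) and -0.01 with DMBA (95% interval -0.27 to 0.24). The BaP call held in 3 of 6 fits without 1 array and was lost without acetone replicate 1 or 2 or BaP replicate 2. The differences in the 6 fits were -0.53 to -0.31. BaP minus DMBA was -0.38 (limma adjusted p = 0.309). Macrophages, which break down haem, are rich in this enzyme. Of 18 macrophage and leukocyte markers 11 fell and 0 rose with BaP, with a median of -0.44. This is a share of 61.11%, beside 10.6% of all genes. The signals of these markers summed to 7877 to 8498 for BaP, 10505 to 12593 for DMBA and 10058 to 10399 for acetone, with Ptprc, Itgam and Fcer1g below the 0.25 quantile of levels. The part of these cells in the Hmox1 difference was not tested.

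Me1 and G6pdx make enzymes that supply NADPH, and Osgin1 is a stress-responsive growth inhibitor gene. G6pdx was at 9.32, 9.38 and 9.24 with BaP and 9.44, 9.51 and 9.74 with DMBA, against 9.60, 9.49 and 9.58 with acetone. The BaP arrays lay below all others, and the difference of -0.24 was just outside the threshold (limma adjusted p = 0.0628). Me1, with differences of 0.08 for BaP and 0.15 for DMBA, and Osgin1, with 0.14 and 0.17, overlapped acetone and did not pass on all arrays.

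Of 6 phase I and II genes, Ephx1 and Akr1b3 rose and Cbr1 fell with BaP, and none passed with DMBA. The share with BaP was 50.0%, beside 10.6% of all genes. Ephx1 makes the microsomal epoxide hydrolase, which opens the epoxides that cytochrome P450 forms on BaP and DMBA. It was at 9.70, 9.64 and 9.68 on BaP arrays and 9.62, 9.47 and 9.89 on DMBA arrays, against 9.18, 9.19 and 9.14 on acetone arrays. All exposed arrays lay above acetone by more than the acetone arrays differed among themselves. The difference was 0.50 with BaP (SE 0.08, limma adjusted p = 9.73e-05, 1.42-fold) and 0.49 with DMBA (SE 0.10, limma adjusted p = 0.0588, 1.40-fold), where only the first passed. BaP minus DMBA was 0.02 (95% interval -0.22 to 0.25). Without DMBA replicate 3, or with 9 arrays in 1 fit, the DMBA difference passed too.

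Akr1b3, aldose reductase, which reduces aldehydes and glucose, was at 9.56, 9.49 and 9.50 on BaP arrays and 9.44, 9.28 and 9.41 on DMBA arrays, against 9.06, 9.13 and 9.05 on acetone arrays. The 3 groups did not overlap, BaP being highest and acetone lowest. The difference was 0.44 with BaP (SE 0.08, limma adjusted p = 5.34e-04) and 0.30 with DMBA (limma adjusted p = 0.132). Cbr1, a carbonyl reductase that acts on quinones, was at 9.15, 9.08 and 9.08 with BaP and 9.38, 9.61 and 9.21 with DMBA, against 9.28, 9.38 and 9.46 with acetone. Its BaP arrays were the lowest of the 9, a difference of -0.27 (SE 0.08, limma adjusted p = 0.0365) that held in 2 of 6 fits and was lost without acetone replicate 2 or 3 or BaP replicate 2 or 3. Its relative Cbr3 differed by 0.09 with BaP and -0.04 with DMBA, and a dimmer Cbr3 probe gave -0.17 and -0.05. Por, which passes electrons to cytochrome P450 enzymes, differed by 0.07 and -0.07, and the sulfotransferase gene Sult1a1 by -0.15 and -0.22, none past the test.

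**Figure D2:**
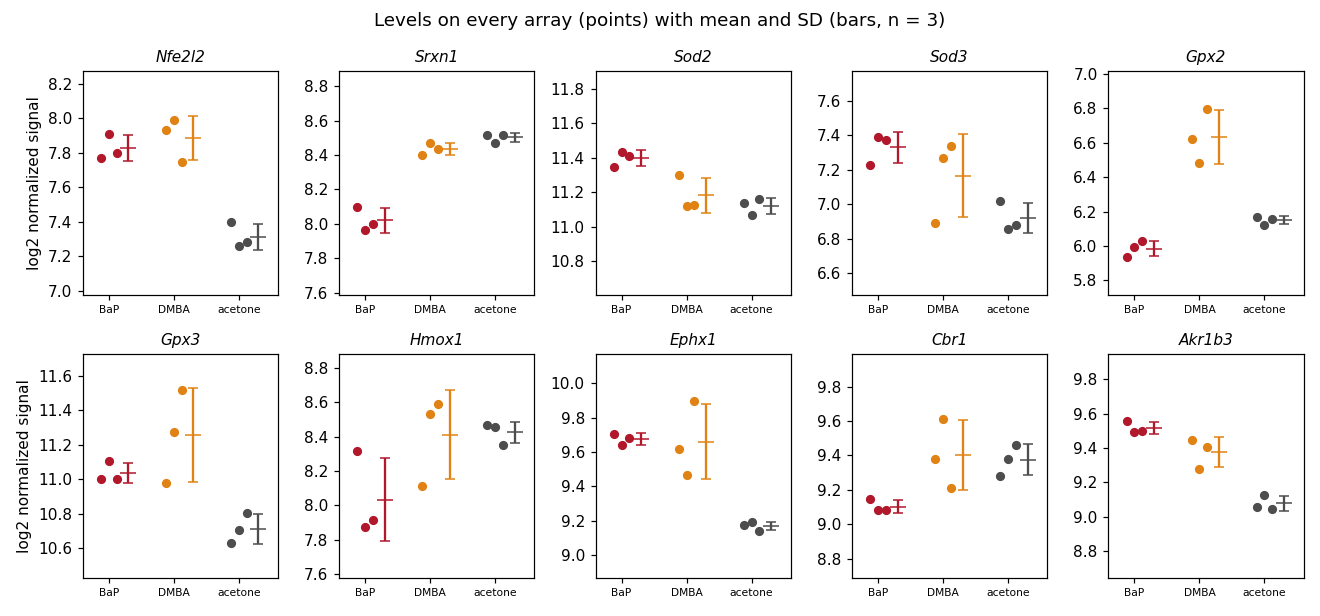
Log2 normalized signal on each array for the 10 genes called in any comparison, in the order BaP, DMBA, acetone, with points for arrays and bars for mean and SD (n = 3), each panel spanning the same height. Nfe2l2, Ephx1, Gpx3 and Akr1b3 are higher on all exposed arrays than on any acetone array, Srxn1 and Cbr1 are lowest on BaP arrays, and Gpx2 is highest on DMBA arrays.

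The efflux pump genes Abcc1, Abcc3 and Abcg2, which export conjugates and drugs, passed no test. The difference of Abcc1 was 0.15 with BaP and 0.21 with DMBA, that of Abcc3 was -0.16 with both, and that of Abcg2 was -0.08 and -0.12. Abcc1 and Abcg2 had mean levels of 6.05 and 5.94, and Abcg2 was the only one of the 33 genes below the 0.25 quantile of gene levels.

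Compared directly, at different doses, 2 of 33 genes differed between the compounds, Gpx2 and Srxn1, and both were lower with BaP than with DMBA. Of all genes tested, 1.46% were called in this comparison, 0.676% higher and 0.783% lower with BaP. Without genes under the 0.25 quantile of level, 1.86% of all genes kept were called, beside 6.25% of the members kept. The median difference over the 33 genes was -0.03, beside 0.0082 over all genes, and the groups did not overlap in 7 of 33 genes, beside 16.9% of all genes. An unadjusted p under 0.05 was reached by 7 of 33 genes, beside 11.7% of all genes. Limma called 0 of 33 without BaP replicate 1 or 2 and 1, Gpx2, without BaP replicate 3 or DMBA replicate 2. These fits called 0.43% to 0.503% of all genes. For the brightest probes of Nfe2l2, Ephx1 and Keap1 the 95% intervals of the difference lay within -0.29 to 0.25. The dimmer Keap1 probes gave -0.22 (-0.42 to -0.02), -0.17 (-0.40 to 0.05) and -0.22 (-0.52 to 0.08), none past the test. Under median scaling of the arrays the differences of the brightest probes were -0.40 for Nfe2l2 (limma adjusted p = 0.087), -0.36 for Ephx1 (limma adjusted p = 0.0393) and -0.41 for Keap1 (limma adjusted p = 0.0175). The brighter genes then had a median of -0.29. A p that misses the threshold does not show that the compounds act alike on these genes.

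**Figure D3:**
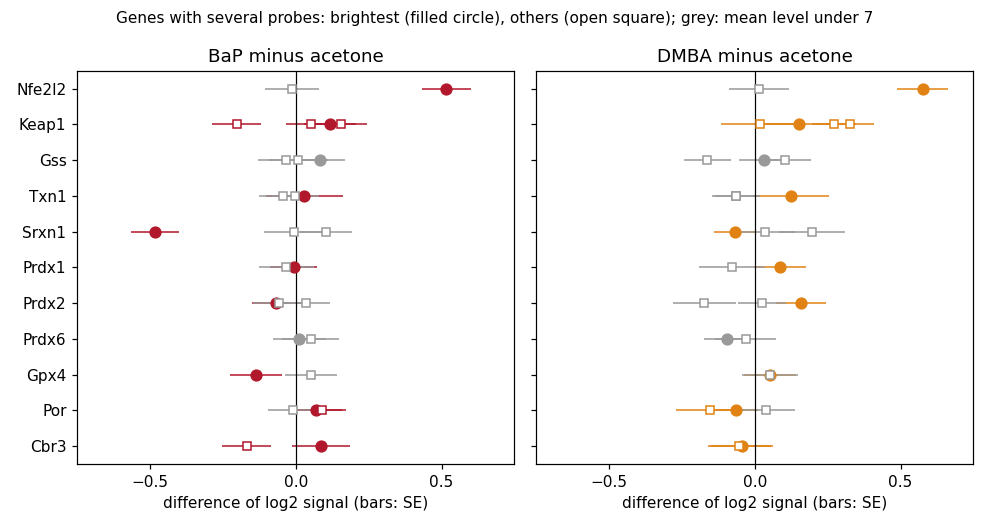
Differences of log2 signal from acetone for each probe of the 11 genes with several probes, BaP at the left and DMBA at the right, with bars for SE. The brightest probe is a filled circle and others are open squares, and grey marks a mean level under 7. The coloured Keap1 probes run from -0.20 to 0.15 with BaP, and the dimmer probes of Nfe2l2 and Srxn1 are grey and near 0 with BaP.

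Further genes around these were listed by role, 87 of 91 of them measured. With BaP 11 rose and 9 fell, a share of 22.99% beside 10.6% of all genes. With DMBA limma called 0 of 87, beside 186 calls over all genes. An unadjusted p under 0.05 was reached by 19 of 87, beside 10.2% of all genes. Among 8 NRF2 partners and relatives, the small MAF gene Mafg rose by 0.28 and the NRF2 relative Nfe2l1 fell by 0.33 with BaP, a share of 25.0%. Among 19 further NRF2 targets, 5 rose and 0 fell with BaP, a share of 26.32% beside 10.6% of all genes. They were the glucuronosyltransferase Ugt1a6a (1.22, SE 0.11, limma adjusted p = 1.82e-08), the esterase Esd (0.65), the NADPH source Idh1 (0.56), the quinone reductase Nqo1 (0.52) and the transporter Abcc5 (0.49). With DMBA, Ugt1a6a was at 0.62 (limma adjusted p = 0.0811) and Nqo1 at 0.20 (limma adjusted p = 0.385), and both had no overlap with acetone. The Ugt1a genes share exons, so this probe may read relatives of Ugt1a6a too. Nqo1 and Ugt1a6a are also targets of the aryl hydrocarbon receptor. Of 9 listed genes of this receptor, its partner and its targets, 3 rose with BaP, a share of 33.33%. With DMBA limma called 0 of 9, and 2 of 9 had an unadjusted p under 0.05, beside 10.2% of all genes. The differences were 0.28 for Ahrr, -0.01 for Cyp1a1 and 0.13 for Cyp1b1 with BaP, and 0.03, 0.03 and 0.07 with DMBA, and of the 6 fits without 1 array only the fit without BaP replicate 3 called Ahrr. Cyp1a1 lay near the lowest signals, at a mean level of 5.92.

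Of 31 further antioxidant genes, 2 rose and 2 fell with BaP, a share of 12.9% that is near the 10.6% of all genes. The sestrin Sesn2 (0.42) and the peroxidase Gpx8 (0.29) rose, and the sestrin Sesn1 (-0.39) and Txnip (-0.37), an inhibitor of thioredoxin, fell. Of 29 further detoxification genes, 3 rose and 6 fell with BaP, a share of 31.03%. The methyltransferase Nnmt rose by 0.83 (limma adjusted p = 8.60e-08) and the progesterone-inactivating reductase Akr1c18 by 0.70 (limma adjusted p = 2.41e-06). The drug efflux pump gene Abcb1b, at -0.81 (limma adjusted p = 1.96e-07), and the carbonyl reductase Cbr2, at -0.71 (limma adjusted p = 1.73e-06), fell. BaP minus DMBA was 0.92 for Akr1c18, -0.67 for Cbr2, 0.60 for Ugt1a6a, 0.54 for Nnmt, 0.49 for Abcc5 and -0.46 for Abcb1b, all past the test. Those of Akr1c18 and Cbr2 held in 6 of 6 fits without 1 array. Those of Ugt1a6a, Abcc5 and Abcb1b were lost without DMBA replicate 2 or any BaP replicate, and that of Nnmt without DMBA replicate 2 or BaP replicate 1 or 2. Under median scaling the calls of Ugt1a6a (0.22), Nnmt (0.21) and Abcc5 (0.09) were lost. Mafg, Nfe2l1, Idh1, Abcc5, Gpx8, Txnip and the sestrins were named after their values were seen.

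Several increases with BaP depended on the scaling. BaP arrays were dimmer, and scaling each array by its median in place of quantile normalization gave median BaP differences of -0.05 over all genes and of -0.38 over the brighter ones, those over the median level, where quantile normalization gave -0.0049 and -0.02. Then 17 of the 33 genes were called, 0 higher and 17 lower, beside 28.7% of all genes called, 253 higher and 4877 lower. Nfe2l2 (0.16), Sod3 (0.15) and Ephx1 (0.02) kept a positive sign, and Akr1b3 (-0.05), Gpx3 (-0.09) and Sod2 (-0.12) turned, none of the 6 called. Relative to the median of the brighter genes, these 6 stood at 0.26 to 0.55. Srxn1 (-0.91), Hmox1 (-0.83) and Cbr1 (-0.76) were called lower, and relative to that median they stood at -0.53, -0.45 and -0.38. On the deposited normalized values, whose quantiles are also equal between arrays, all 9 BaP calls held. There 3 further genes, Sod1, G6pdx and Gclm, were called lower.

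**Figure D4:**
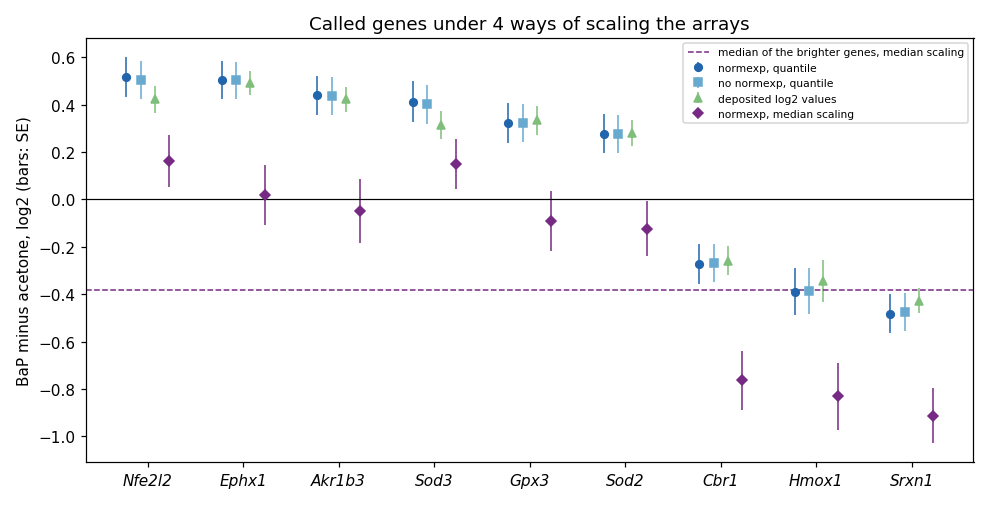
BaP minus acetone, in log2 units, for the 9 genes called with BaP under 4 ways of processing the arrays, with bars for SE. The first 3 ways all give the arrays equal quantiles, so their similar values are not separate checks of the scaling. Median scaling (diamonds), the only way that does not, places each of the 9 genes lower. The dashed line at -0.38 is the median of the brighter genes under that scaling. The 6 increased genes lie above the dashed line and the 3 decreased genes below it.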

How the data were processed

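Members and gene lists were chosen with earlier results of these data known. The deposited table of non-normalized intensity values, per the file headers, is linear and lacks detection p-values. Whether the scanner subtracted background is not given in the sources used. The authors also deposited log2 values of these arrays, whose quantiles are equal, and the submitters' processing notes name lumi. Per the file headers, the deposited reports hold for each probe the ratio of acetone to compound and a p-value of an ANOVA, without adjustment.

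Probes were named by matching differences of group means to the log2 of the deposited ratios for both compounds, allowing 0.0001 and requiring any other row to be 5 or more times as far, which paired 25649 of 25697 probes. Names were updated through RefSeq (GRCm38.p6), 23688 by accession. Intensities went through normexp (offset 50), quantile normalization and a log2 transform, and dim probes were kept. The 6 arrays of a comparison entered its fit, over 17889 genes (brightest probe), by lmFit and eBayes (limma 3.58.1, R 4.3.3). Tests were two-sided, and p-values were adjusted by Benjamini-Hochberg over every gene, with calls at 0.05. Differences of dimmer probes come from the same fit over 25649 probes. Tables and figures were made in Python 3.11.15 (numpy 2.4.6, pandas 2.3.3, scipy 1.17.1, matplotlib 3.10.9). The fit was tested on simulated data.

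The text gives every array's value for called genes and for the NRF2 core (Hmox1, Gclc, Gclm, Srxn1, Txnrd1, Slc7a11, Nfe2l2, Keap1), and names the called genes of largest change from the further lists, up to 6 per comparison. Nqo1, Ugt1a6a, Cyp1a1, Cyp1b1, Ahrr and Cdkn1a were named as a check of the treatment. The text departs from this rule for the genes it says were named after their values were seen. Lists are described by counts and medians, with no set test. Alternatives were median scaling, signals without normexp, the deposited log2 values, all probes, genes under the 0.25 quantile of level left out, 9 arrays in 1 fit, the replicate number as a block, and each array left out in turn. The number of arrays limits the precision.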

Additional observations from a re-analysis of the deposited data

How the results depend on the processing

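With BaP, 9 of 33 genes were called. The percentages in brackets are the calls over all genes or probes of the same fit. The count was 17 under median scaling, 5 with 9 arrays in 1 fit (6.04%), and 5 to 9 without 1 array (6.05% to 9.99%). It was 7 with the replicate block (8.28%), which lost Sod2 and Cbr1, and 9 to 12 under the other settings (9.82% to 14.7%). The fit of 9 arrays lost Sod2, Gpx3, Hmox1 and Cbr1. With DMBA, 2 were called. The count was 0 under median scaling, 1 on the deposited values (0.548%) and 4 with 9 arrays in 1 fit (1.66%). It was 3 with the replicate block (1.17%), which added Gpx3, and 0 to 5 without 1 array (0.123% to 4.58%). Between the compounds, 2 were called. The count was 10 under median scaling, 1 with the replicate block (0.76%), which lost Srxn1, and 0 to 3 without 1 array (0.43% to 4.33%). Median scaling called 28.7% of all genes with BaP, 0.0168% with DMBA and 11.6% between the compounds, and turned called or newly called differences. For BaP against acetone, Sod2 (-0.123), Gpx3 (-0.09) and Akr1b3 (-0.049) turned and lost the call, and Keap1 (-0.364), Por (-0.41) and Cbr3 (-0.40), not called otherwise, turned and were called lower. Between the compounds Ephx1 (-0.36) did the same. Fewer arrays leave fewer degrees of freedom; other causes were not tested. The labels do not say whether equal replicate numbers pair the arrays, and correlations over so few arrays cannot settle it. Deviations of same-numbered arrays correlated at -0.186 to 0.139, and those of other pairs at -0.146 to 0.189. Not every array correlated best with its own number. Over 29 called single-gene differences and their settings, 300 kept direction and call, 74 kept the direction only and 3 turned. Over all 60 single-gene differences, called or not, 26 values changed sign with no call on either side. With no detection p-values, members near the lowest signals (Abcg2, Abcc1, Prdx6, Gclc and Txnrd1) can show little of a change. Gpx2 is also dim, at a mean level of 6.26, but was called with DMBA and between the compounds.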

Other observations

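Markers of several cell types were called with the compounds. With DMBA, 2 of 18 macrophage and leukocyte markers rose, C1qb (0.88) and C1qc (0.65), and none fell, a share of 11.11% beside 1.04% of all genes. With BaP 11 fell, a share of 61.11% beside 10.6% of all genes. Of 14 oocyte markers, 2 rose and 4 fell with BaP (42.86%) and 2 fell with DMBA (14.29%). Of 12 granulosa markers, 1 rose and 3 fell with BaP (33.33%). With DMBA limma called 0 of them, beside 4 at an unadjusted p under 0.05 (10.2% of all genes). Of 9 surface epithelium markers, 1 rose and 3 fell with BaP (44.44%) and 1 rose with DMBA (11.11%), their signals summing to 3431 to 3610 for BaP, 4108 to 5110 for DMBA and 3914 to 4083 for acetone. C1qb and C1qc were named after their values were seen. The part of these cells in the differences of the antioxidant and detoxification genes was not tested.

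In the authors' deposited table, 13 of the 33 genes had an unadjusted p-value under 0.05 with BaP, 6 higher and 7 lower than acetone, beside 17.86% of all paired probes. In the authors' deposited table for DMBA, 8 had one, 6 higher and 2 lower, beside 11.46% of all paired probes. None of these genes also passed a fold of 1.5 there. The authors' deposited ratio of acetone over DMBA was 0.679 for Gpx3 and 0.719 for Ephx1, so both were higher with DMBA, with unadjusted p-values of 8.10e-04 and 4.59e-04.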
